A study of Rattus norvegicus with 9 samples.

Results

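The insulin signalling, FoxO and 4E-BP genes described here were 10 rat genes: the insulin receptor gene Insr, the receptor substrate genes Irs1 and Irs2, the kinase genes Akt1 and Akt2, the forkhead factor genes Foxo1, Foxo3 and Foxo4, and the translation repressor genes Eif4ebp1 and Eif4ebp3. They were found by gene symbol in the platform annotation, which gave 10 of 10411 genes with a symbol and 18 of the 15866 probe sets that were not controls. The series holds 9 one-colour arrays of total RNA from whole rat liver, with 3 for each of the titles Burn-CLP, Sham-CLP and Sham-Sham. The labels name the last as the control, carry no strain, age, dose, time after injury or expansion of CLP, and record no allele or drug in any group. Nothing in the labels ties the arrays to animals, so p-values here cover the spread among the arrays alone, and that spread may be technical. In whole tissue, fewer cells of a type and less RNA per cell cannot be told apart.

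Insulin binding activates its receptor kinase, which phosphorylates the insulin receptor substrates, and these recruit phosphatidylinositol 3-kinase and so activate Akt. Akt phosphorylates FoxO transcription factors, which then leave the nucleus, and in liver this lowers transcription of genes of glucose production. Akt also activates the kinase complex mTORC1, which phosphorylates the 4E-BP proteins and releases the cap-binding factor eIF4E for the initiation of translation. These steps act on proteins, whereas the arrays measured RNA.

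A signal is given on the linear scale after quantile normalization, and a difference is a difference of mean log2 signals. A floor of 64.3, the 20th percentile over all arrays, marked what was not above background, and lower signals were raised to it. Testing required a signal over the floor on 3 or more arrays. Of the 18 probe sets, 17 were tested, covering all 10 genes, and the remaining one, for Foxo1, was under the floor on all 9 arrays. Differences were tested with limma in a fit over all 13535 probe sets that passed the filter, with Benjamini-Hochberg adjustment over all of them, and a call is an adjusted p under 0.05. The genes were chosen with results from these arrays in view, namely the group differences in signal, with Foxo4 among those already seen to differ. Their levels, calls and adjusted p-values therefore describe where they stand in that fit and are not independent evidence. With 3 arrays against 3, an exact two-sided permutation test of a single gene could not give a p below 0.1, so none was run.

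Across the 9 arrays the deposited values had medians between 205 and 268.1, and their mean correlation with the other 8 arrays was 0.9078 for Sham-Sham 1 and between 0.9377 and 0.9587 for the others. The liver label was checked against 10 hepatocyte genes, of which 9 were tested. Their summed signal was 196857–207121 in Burn-CLP, 205491–210213 in Sham-CLP and 200631–210790 in Sham-Sham, with the albumin gene Alb the brightest. Sums of some markers of other cells separated some pairs of groups, while other sums overlapped. The 9 tested of 12 macrophage genes, with Cd14 the brightest, summed to 11241–16189 in Burn-CLP, 10518–12356 in Sham-CLP and 9485–10591 in Sham-Sham, and the 4 tested of 10 neutrophil genes, with S100a9 the brightest, to 561–1341 in Burn-CLP, 372–538 in Sham-CLP and 307–447 in Sham-Sham. The 4 tested of 6 blood genes, with Hbb the brightest, summed to 10026–12071 in Burn-CLP, 11609–12774 in Sham-CLP and 12886–16067 in Sham-Sham, and the 10 stellate cell genes, with Col3a1 the brightest, to 5099–6895 in Burn-CLP, 5008–7247 in Sham-CLP and 6927–7772 in Sham-Sham. Stellate genes went both ways in Burn-CLP against Sham-Sham, with 2 higher and 3 lower at an unadjusted p under 0.05. The decorin gene Dcn, the only stellate gene called, was higher. In the same comparison 1 of the 4 tested neutrophil genes was called, also higher. The 13 tested of 16 lymphocyte genes, with Cd4 the brightest, summed to 2337–2622 in Burn-CLP, 2040–2069 in Sham-CLP and 2232–2844 in Sham-Sham. Sums of 6 tested of 9 endothelial genes, with Kdr the brightest, and of 5 tested of 7 bile duct genes, with Epcam the brightest, overlapped between Burn-CLP and Sham-Sham. The 7 tested of 12 muscle, fat and pancreas genes, with Ckm the brightest, summed to 1024–1147 in Burn-CLP, 1024–1224 in Sham-CLP and 1056–2044 in Sham-Sham. The part of these shifts in the results below was not tested.

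Over the 17 tested probe sets, Eif4ebp3 was called higher and Foxo4 lower in Burn-CLP than in Sham-Sham, and Foxo4 was called lower in Sham-CLP than in Sham-Sham. In the first of these comparisons that is 2 of 17, or 11.8%, where 0.746% of all probe sets were called, 0.325% higher and 0.421% lower. In Sham-CLP against Sham-Sham it is 1 of 17, or 5.88%, where 0.0591% were called, 0.0148% lower. Between Burn-CLP and Sham-CLP none of the 17 was called by limma, where 0.0148% of all probe sets were, and 2, Eif4ebp3 and Irs2, had an unadjusted p under 0.05, both higher, where 9.09% of all probe sets had one, 3.9% higher. The arrays did not overlap for 17.6%, 11.8% and 11.8% of the 17 in Burn-CLP against Sham-Sham, Sham-CLP against Sham-Sham and Burn-CLP against Sham-CLP, where they did not for 22%, 17.2% and 19.4% of all probe sets. No more is read from these counts, because the genes were chosen with these comparisons known. The other 15 differed by -0.59 to 1.08 in Burn-CLP against Sham-Sham, by -0.32 to 0.47 in Sham-CLP against Sham-Sham, and by -0.39 to 0.85 in Burn-CLP against Sham-CLP. The median over the 17 was 0.07, -0.05 and 0.18 in those comparisons, beside 0.01, 0.00 and 0.02 over all 13535.

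**Figure D1:**
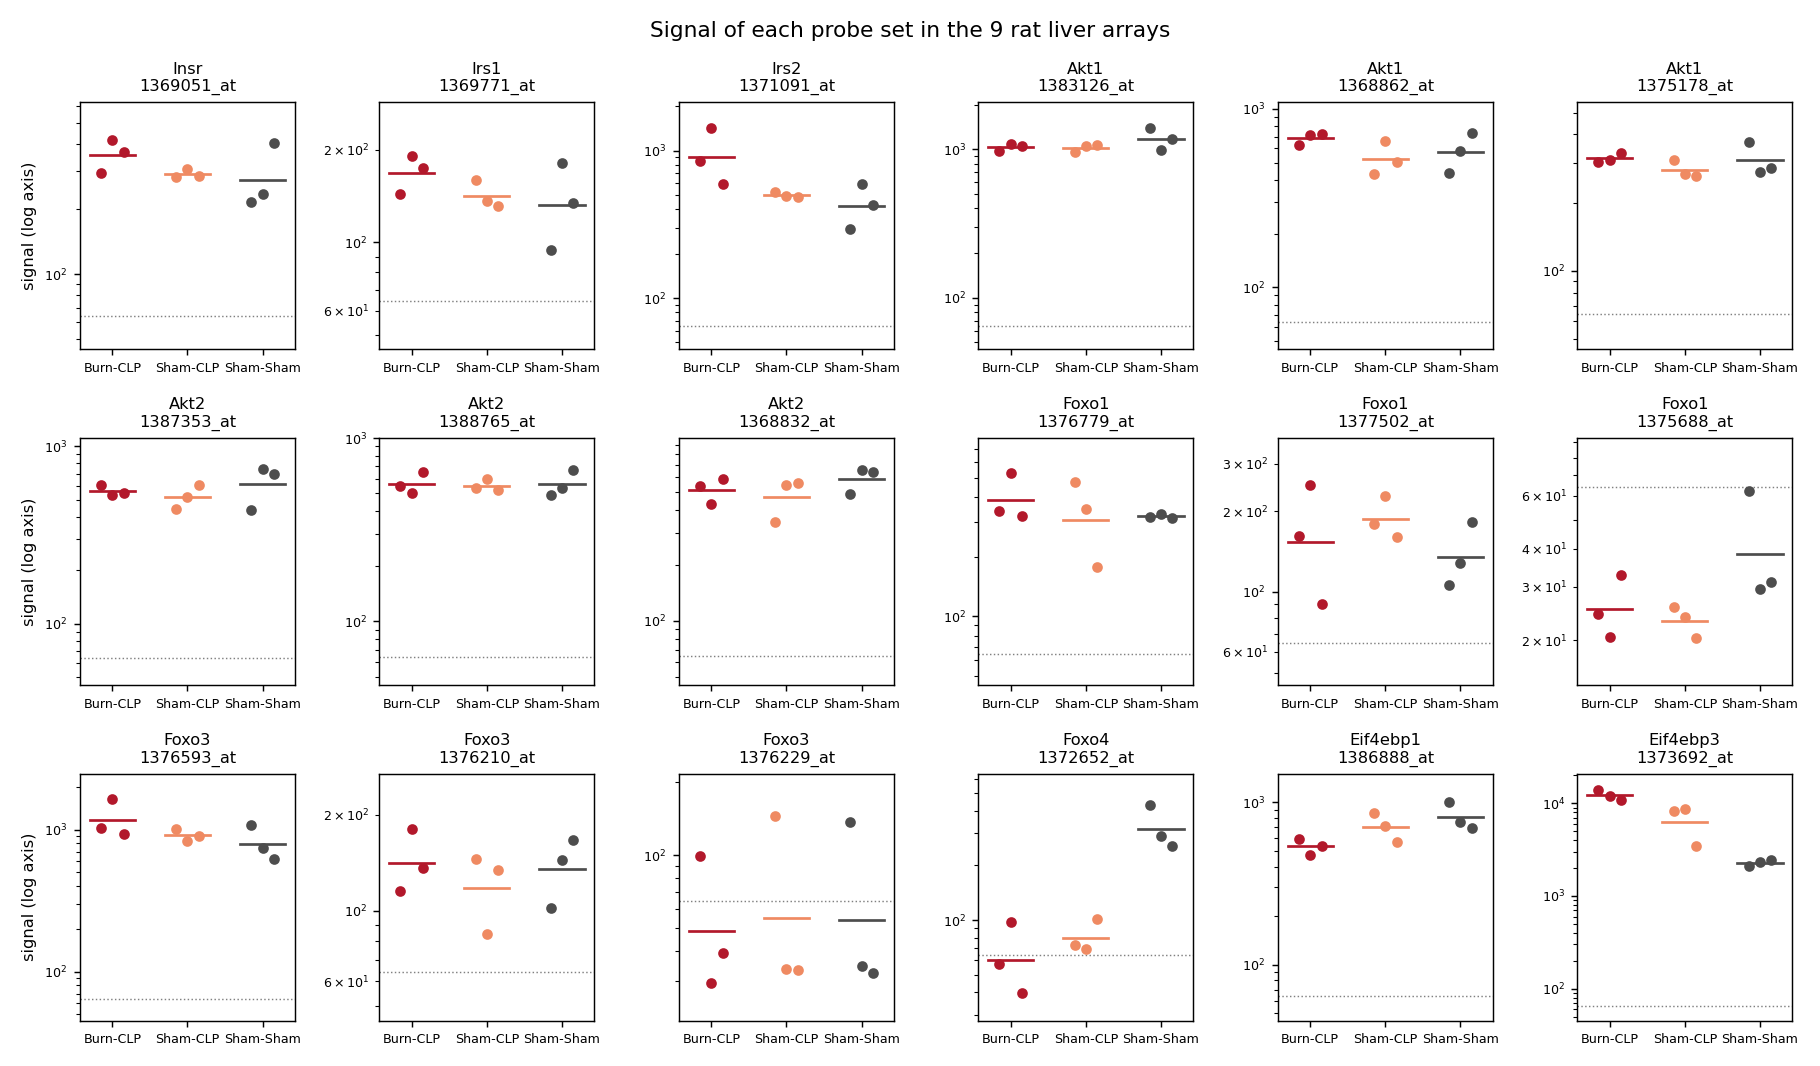
Signal (log axis, own range in each panel) of the 18 probe sets on the 9 arrays, 1 point per array in the groups Burn-CLP, Sham-CLP and Sham-Sham; horizontal bars are means of the log2 signals before flooring, and the dotted line is the floor of 64.3. In the Eif4ebp3 panel the 3 groups do not overlap, and in the Foxo4 panel the 3 Sham-Sham arrays, at 254.8 and above, stand over all 6 others.

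Eif4ebp3 encodes 4E-BP3, one of the proteins that bind eIF4E and hold it away from the cap-binding complex. Its probe set 1373692_at had signals of 13967, 11911 and 10961 in Burn-CLP, 8347, 8760 and 3450 in Sham-CLP, and 2089, 2319 and 2425 in Sham-Sham. Every Burn-CLP array was above every Sham-CLP array, and every Sham-CLP array above every Sham-Sham array. The means were 12280 ± 1537 in Burn-CLP, 6852 ± 2954 in Sham-CLP and 2278 ± 171 in Sham-Sham (SD, n = 3 each). Eif4ebp3 in Burn-CLP against Sham-Sham was 5.37-fold higher, a log2 difference of 2.43 ± 0.32 (SE; limma, adjusted p = 0.0192), and stood 19th of all probe sets by p. Sham-CLP against Sham-Sham gave a signal 2.78-fold higher, at 1.47 ± 0.32, without a call (limma, adjusted p = 0.241). Burn-CLP against Sham-CLP gave one 1.93-fold higher, at 0.95 ± 0.32, again without a call (limma, adjusted p = 0.437).

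The Sham-CLP spread of Eif4ebp3 came from 1 array. Sham-CLP 3, at 3450, lay under the other Sham-CLP arrays at 8347 and 8760. Without it, Eif4ebp3 was called in Sham-CLP against Sham-Sham, at 1.91 ± 0.19 (limma, adjusted p = 0.0259), and its difference in Burn-CLP against Sham-CLP was 0.52 in place of 0.95. The call in Burn-CLP against Sham-Sham was lost without Burn-CLP 1 (limma, adjusted p = 0.076), Burn-CLP 2 (0.0865), Sham-Sham 1 (0.0601) or Sham-Sham 2 (0.0532), while the difference stayed between 2.34 and 2.51 in all 16 alternatives.

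Since Eif4ebp3 had the largest increase among these genes, the 250 bases before its start are shown, from RefSeq on build GRCr8, plus strand, chr18:28540074-28540323. No motif searched occurs in them, so no letter is in capitals.
Eif4ebp3: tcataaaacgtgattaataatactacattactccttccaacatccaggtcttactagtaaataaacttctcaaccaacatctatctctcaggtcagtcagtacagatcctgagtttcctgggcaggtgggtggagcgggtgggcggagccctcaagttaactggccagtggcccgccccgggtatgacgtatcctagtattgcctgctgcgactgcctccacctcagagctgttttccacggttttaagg
Searched on both strands were the FoxO core, spelled GTAAACA, the insulin response element, spelled CAAAACA, and the C/EBP-ATF response element, spelled TGATGNAA. These are held by 3.21%, 5.46% and 3.4% of all 33469 RefSeq windows of the same length. RefSeq had a window for 7 of the 10 genes, and the only match among the 7 was a FoxO core in Insr. For 4 of the 7, Insr, Akt1, Akt2 and Foxo4, the window lies inside the span of the gene itself. An absent match says only that these letters are not in this window.

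The other 4E-BP gene, Eif4ebp1, encodes 4E-BP1, the best known mTORC1 substrate of the family. Its probe set 1386888_at had signals of 597.7, 473.7 and 540.9 in Burn-CLP, 853.1, 711.5 and 568.4 in Sham-CLP, and 1002, 758.8 and 693.3 in Sham-Sham. All Burn-CLP arrays were below all Sham-Sham arrays, a separation that 22% of all probe sets showed in 1 direction or the other, and the Sham-CLP arrays overlapped both. The difference in Burn-CLP against Sham-Sham was -0.59 ± 0.22 (limma, adjusted p = 0.182), and it was called in none of 16 alternatives. Eif4ebp3 and Eif4ebp1 thus differed in sign in Burn-CLP against Sham-Sham, with only Eif4ebp3 past the threshold. A related pair of genes was chosen after their values were seen, and neither passed the test. Eif4ebp2, the remaining gene of the 4E-BP family, differed by -0.20 in Burn-CLP against Sham-Sham, and Eif4e, the gene of the cap-binding factor itself, by 0.40 ± 0.17 (limma, adjusted p = 0.236).

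Foxo4 encodes a FoxO factor of the same DNA-binding family as Foxo1 and Foxo3. Its probe set 1372652_at had signals of 57.42, 97.17 and 39.82 in Burn-CLP, 73.16, 69.64 and 100.8 in Sham-CLP, and 427.8, 289.0 and 254.8 in Sham-Sham. The lowest Sham-Sham array was above all 6 CLP arrays, while Burn-CLP and Sham-CLP overlapped. Means were 64.8 ± 29.4 in Burn-CLP, 81.2 ± 17.0 in Sham-CLP and 324 ± 91.6 in Sham-Sham (SD, n = 3 each). Burn-CLP 1 and Burn-CLP 3 were under the floor, so 1 of the 3 Burn-CLP arrays measured Foxo4 and its fold there understates the difference.

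Foxo4 fell 4.28-fold in Burn-CLP against Sham-Sham, a log2 difference of -2.10 ± 0.26 (SE; limma, adjusted p = 0.0123), and stood 16th of all probe sets by p. It fell 3.94-fold in Sham-CLP against Sham-Sham, at -1.98 ± 0.26 (limma, adjusted p = 0.0422), and stood 8th. These comparisons share the Sham-Sham arrays. Between Burn-CLP and Sham-CLP the difference was -0.12 ± 0.26 (limma, adjusted p = 0.94), a value that the floor under 2 Burn-CLP arrays compresses. Over 15 alternatives it ran from -0.40, with the floor at the 10th percentile, to 0.05, without Sham-CLP 3, and none gave a call. Foxo4 was also the only one of the 17 called for any difference among the 3 groups (limma moderated F test, adjusted p = 0.0208, where 0.148% of all probe sets were called); Eif4ebp3 had 0.0521 in that test.

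The call of Foxo4 in Burn-CLP against Sham-Sham was lost without Burn-CLP 1 (limma, adjusted p = 0.0708) and when only those 2 groups were fitted (0.0553), and kept in 13 of 15 alternatives. The call in Sham-CLP against Sham-Sham was kept in 2 of 15, without Burn-CLP 2 and without Sham-Sham 3. It was lost without Burn-CLP 1 (0.0698), Burn-CLP 3 (0.0737), Sham-CLP 1 (0.267), Sham-CLP 2 (0.199), Sham-CLP 3 (0.0646), Sham-Sham 1 (0.1) or Sham-Sham 2 (0.157). The difference itself stayed between -2.15 and -1.63.

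**Figure D2:**
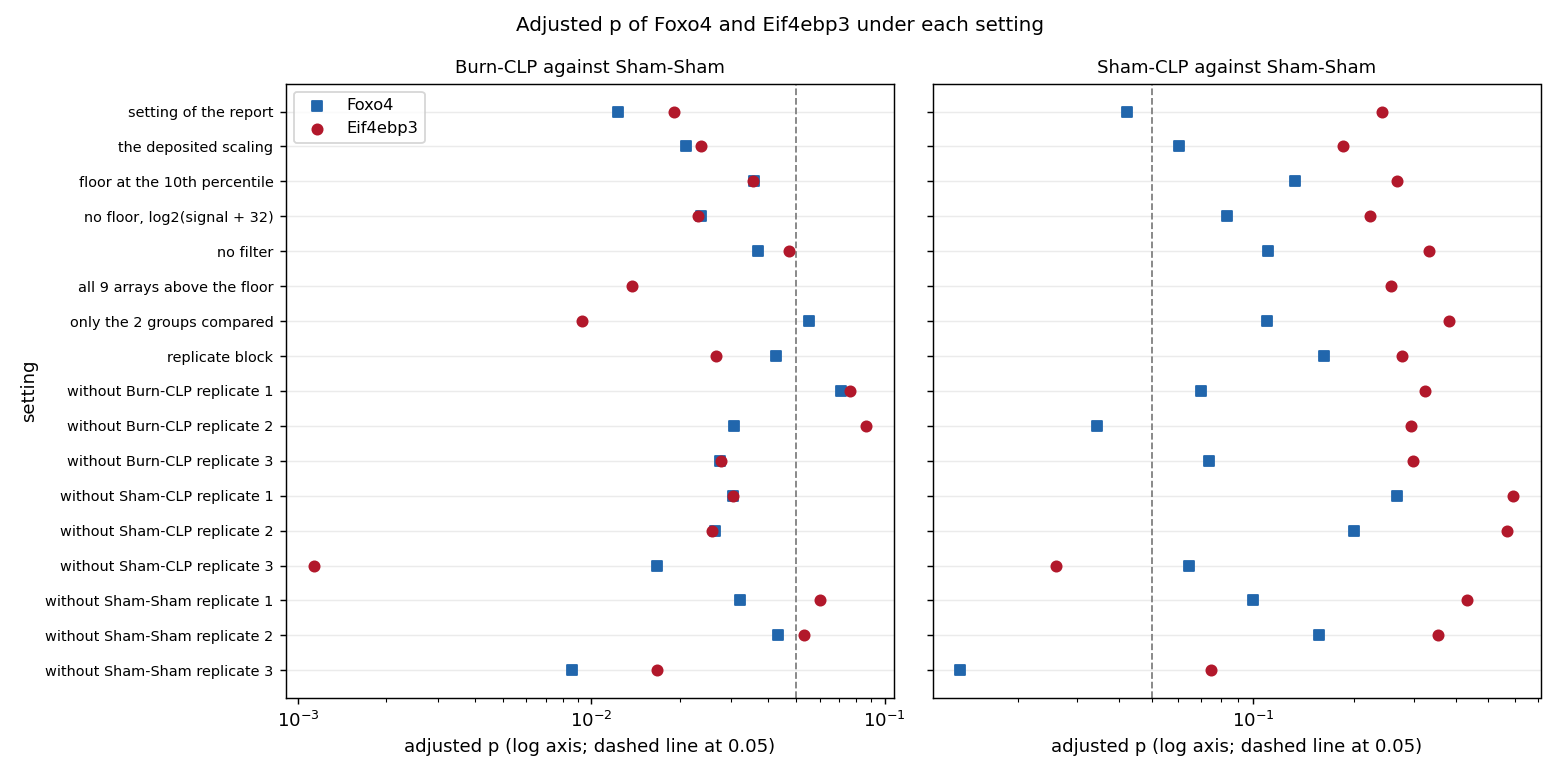
Adjusted p (log axis) of Foxo4 (blue squares) and Eif4ebp3 (red circles) under each setting, 1 setting per line, for Burn-CLP against Sham-Sham on the left and Sham-CLP against Sham-Sham on the right; the dashed line marks 0.05. On the left most points lie under the line, and on the right Foxo4 lies under it in the setting of the report and 2 others, Eif4ebp3 only without Sham-CLP 3; Foxo4 has no point where all 9 arrays had to be above the floor.

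The other FoxO genes did not pass the test in any comparison. Foxo1, which encodes the FoxO factor best known for control of glucose production in liver, had 3 probe sets. The brightest, 1376779_at, had signals of 340.0, 532.6 and 320.8 in Burn-CLP, 477.7, 347.2 and 176.8 in Sham-CLP, and 319.4, 328.6 and 312.7 in Sham-Sham. Sham-Sham was tight and lay inside the range of Sham-CLP, and the differences from Sham-Sham were 0.27 in Burn-CLP and -0.05 in Sham-CLP. The second, 1377502_at, had differences of 0.19 and 0.47, so the probe sets of Foxo1 disagreed in sign for Sham-CLP. The 3rd, 1375688_at, had no array above the floor, its highest signal being 62.13 on Sham-Sham 1.

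Foxo3, whose protein is tied in mammals to stress resistance and autophagy, also had 3 probe sets. The brightest, 1376593_at, had signals of 1020, 1654 and 933.7 in Burn-CLP, 1005, 827.0 and 903.7 in Sham-CLP, and 1085, 744.2 and 621.4 in Sham-Sham. The groups overlapped, with Burn-CLP 2 the highest array, and the difference in Burn-CLP against Sham-Sham was 0.55 ± 0.27 (limma, adjusted p = 0.289). The second, 1376210_at, had a difference of 0.07 there, with signals from 84.62 to 180.1 over the 9 arrays. The 3rd, 1376229_at, was above the floor on 3 arrays only, Burn-CLP 1 at 98.72, Sham-CLP 1 at 145.1 and Sham-Sham 1 at 137.6, which leaves no group with more than 1 measured array.

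Irs2, the receptor substrate that is the main insulin adaptor of liver together with Irs1, had the largest difference among the genes without a call in Burn-CLP against Sham-Sham. Its probe set 1371091_at had signals of 855.0, 1427 and 593.0 in Burn-CLP, 522.1, 490.2 and 481.5 in Sham-CLP, and 296.1, 596.6 and 429.3 in Sham-Sham. All Burn-CLP arrays were above all Sham-CLP arrays, a separation that 19.4% of all probe sets showed in 1 direction or the other, and Burn-CLP 3 fell just under Sham-Sham 2. Means were 958 ± 426 in Burn-CLP, 498 ± 21.4 in Sham-CLP and 441 ± 151 in Sham-Sham (SD, n = 3 each). The difference was 1.08 ± 0.33 in Burn-CLP against Sham-Sham (limma, adjusted p = 0.141) and 0.85 ± 0.33 in Burn-CLP against Sham-CLP (limma, adjusted p = 0.496). No alternative of 16 gave Irs2 a call in Burn-CLP against Sham-Sham, where leaving out Burn-CLP 2 gave a difference of 0.75 and leaving out Burn-CLP 3 one of 1.39. Against Sham-CLP the same omissions gave Irs2 differences of 0.52 and 1.15.

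Irs1 encodes the other adaptor. Its probe set 1369771_at had signals of 143.7, 190.8 and 174.7 in Burn-CLP, 159.0, 136.4 and 131.8 in Sham-CLP, and 94.28, 181.6 and 134.2 in Sham-Sham. The groups overlapped, and the difference in Burn-CLP against Sham-Sham was 0.35 ± 0.24 (limma, adjusted p = 0.442).

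Insr encodes the receptor kinase itself. Its probe set 1369051_at had signals of 293.5, 416.8 and 365.6 in Burn-CLP, 282.1, 306.9 and 285.1 in Sham-CLP, and 216.4, 233.9 and 402.0 in Sham-Sham. Sham-Sham 3 lay inside the Burn-CLP range, and the difference in Burn-CLP against Sham-Sham was 0.38 ± 0.25 (limma, adjusted p = 0.419). The FoxO core in the Insr window, read here on its other strand, is printed in capitals because Insr is a known target of FoxO in flies and mammals. It lies 100 to 94 bases before the RefSeq start (GRCr8, minus strand, chr12:6128886-6128914), in a window that RefSeq places inside the span of Insr itself, since that span reaches further upstream.
Insr: acgggccgcgtTGTTTACtggccggagtc

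No probe set of a kinase gene passed the test in any comparison. Akt1, which encodes the widely expressed isoform, had 3 probe sets, and their differences in Burn-CLP against Sham-Sham were -0.18 for 1383126_at, 0.27 for 1368862_at and 0.03 for 1375178_at. The probe sets of Akt1 thus disagreed in sign, and none had an adjusted p under 0.536 there. Akt2, the isoform most closely tied to insulin action, also had 3 probe sets, and their differences were -0.13 for 1387353_at, 0.01 for 1388765_at and -0.20 for 1368832_at, the first and last of which are annotated with the same accession. Every Akt1 and Akt2 probe set overlapped between Burn-CLP and Sham-Sham, with signals from 261.5 to 1396 over all arrays.

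**Figure D3:**
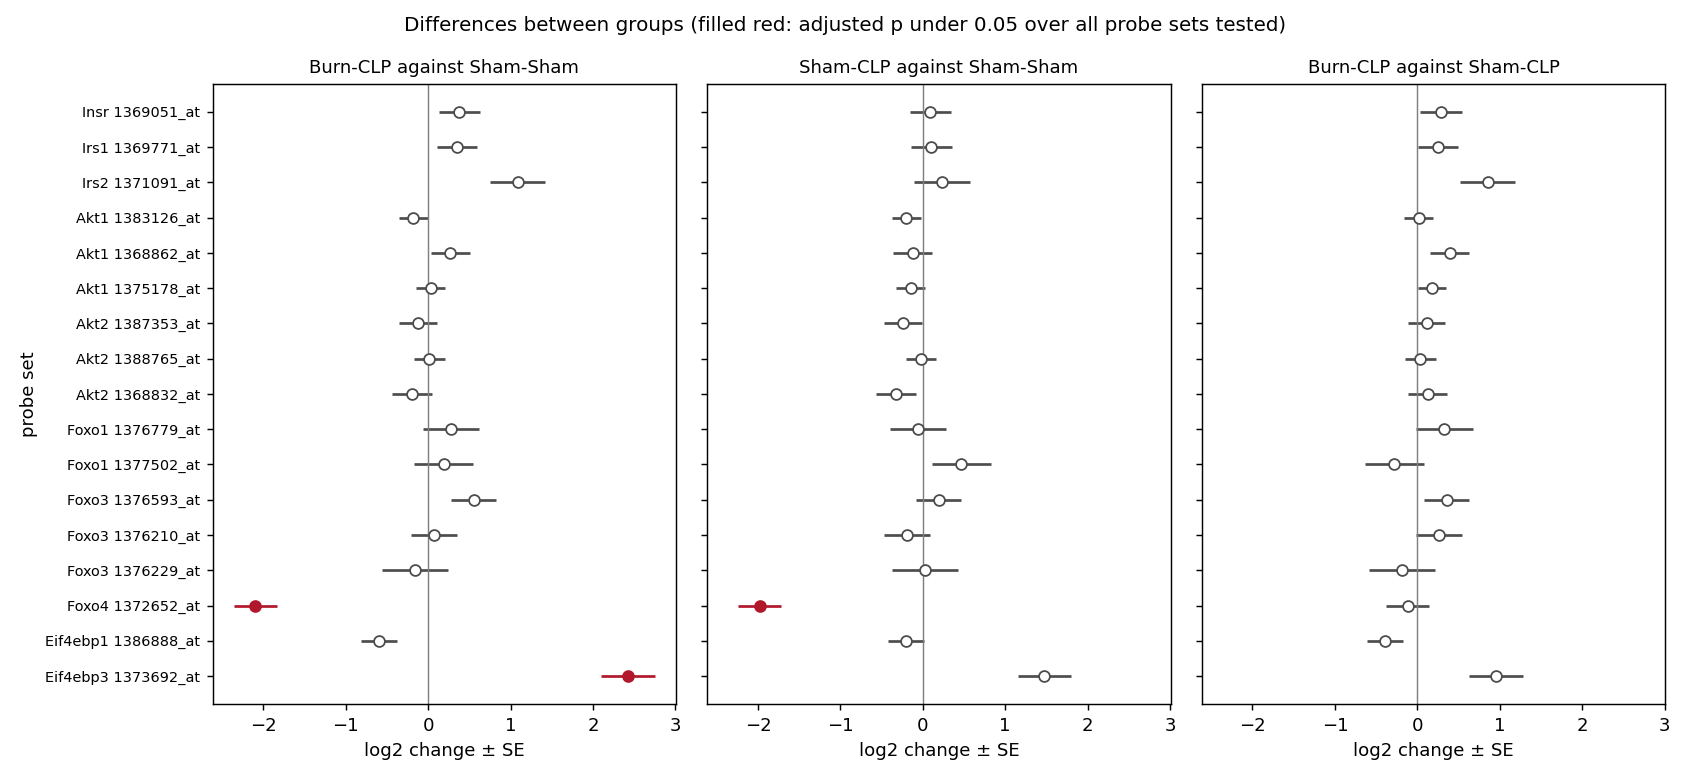
Difference of mean log2 signals ± SE (horizontal axis) for the 17 tested probe sets (1 per line), in Burn-CLP against Sham-Sham, Sham-CLP against Sham-Sham and Burn-CLP against Sham-CLP; filled red points have an adjusted p under 0.05 over all 13535 probe sets. Foxo4 at -2.10 and -1.98 and Eif4ebp3 at 2.43 are the filled points, and the other 15 probe sets lie between -0.59 and 1.08.

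The genes whose signals ran most like Foxo4 over the 9 arrays were Tmprss2 (Pearson r = 0.973), which encodes a membrane serine protease, Slc34a2 (r = 0.968), which encodes a sodium-phosphate transporter, and Utrn (r = 0.966), which encodes utrophin. These are descriptions over 9 arrays, which share the differences between the 3 groups. After the group means were taken out, r was 0.644, 0.808 and 0.602. Tmprss2 and Utrn were at the floor on all 6 CLP arrays and passed the filter through the 3 Sham-Sham arrays alone. The r they kept after the group means were taken out therefore comes from those 3 arrays. Slc34a2 was above the floor throughout, with signals of 115.0, 113.6 and 97.04 in Burn-CLP, 143.2, 140.2 and 169.6 in Sham-CLP, and 584.1, 380.0 and 304.2 in Sham-Sham. Its difference in Burn-CLP against Sham-Sham was -1.91 ± 0.24 (limma, adjusted p = 0.0123). For Foxo4, Tmprss2, Slc34a2 and Utrn alike, Sham-Sham 1 was the highest array, and it had the lowest mean correlation with the other arrays (0.9078). How far the r left after the group means rests on Sham-Sham 1 was not tested.

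Nearest to Eif4ebp3 were Fam178b (r = 0.979; 0.984 after the group means were taken out), Got1 (0.977; 0.829) and Ica1 (0.975; 0.941). Got1, which encodes the cytosolic aspartate aminotransferase, had signals of 16400, 17580 and 14330 in Burn-CLP, 8883, 10030 and 6277 in Sham-CLP, and 2963, 3702 and 2936 in Sham-Sham. Its difference in Burn-CLP against Sham-Sham was 2.33 ± 0.21 (limma, adjusted p = 0.00254). These 3 genes were taken for their likeness to Eif4ebp3 on these same arrays, so a like order of groups and arrays is part of that choice. For Eif4ebp3 and each of them Sham-CLP 3 was the lowest Sham-CLP array. Its signals were 3450 for Eif4ebp3, 64.32 for Fam178b, 6277 for Got1 and 36.38 for Ica1, the last under the floor. How far the r left after the group means rests on that array was not tested. Fam178b and Ica1 were at the floor on 3 and 4 arrays, with all 3 Sham-Sham arrays among them.

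The wider pathway was read from 5 gene lists, each gene by its brightest tested probe set, beside 9339 genes in all. In Burn-CLP against Sham-Sham 0.835% of those genes were called and 20.2% had an unadjusted p under 0.05. In Sham-CLP against Sham-Sham the shares were 0.075% and 11.5%, and in Burn-CLP against Sham-CLP 0.0214% and 9.17%. Over the 5 lists 1 gene was called, in 1 comparison: Sesn1, higher in Burn-CLP than in Sham-Sham.

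Sesn1 encodes sestrin 1, a leucine-binding inhibitor of mTORC1 and a known FoxO target, and so stood in both the mTORC1 list and the FoxO target list. Its signals were 1264, 1667 and 811.2 in Burn-CLP, 639.1, 635.4 and 598.9 in Sham-CLP, and 264.6, 243.8 and 489.0 in Sham-Sham. Its 3 groups did not overlap and had the same order as those of Eif4ebp3. Sesn1 was 3.78-fold higher in Burn-CLP than in Sham-Sham, at 1.92 ± 0.32 (limma, adjusted p = 0.0357), and it differed by 0.98 in Sham-CLP against Sham-Sham and by 0.94 in Burn-CLP against Sham-CLP, neither called. The call was kept in 5 of 16 alternatives, 2 of them with an array left out. It was lost without Burn-CLP 1 (limma, adjusted p = 0.0992), Burn-CLP 2 (0.131), Sham-CLP 1 (0.0638), Sham-CLP 2 (0.0678), Sham-CLP 3 (0.0545), Sham-Sham 1 (0.0992) or Sham-Sham 2 (0.0956).

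**Figure D4:**
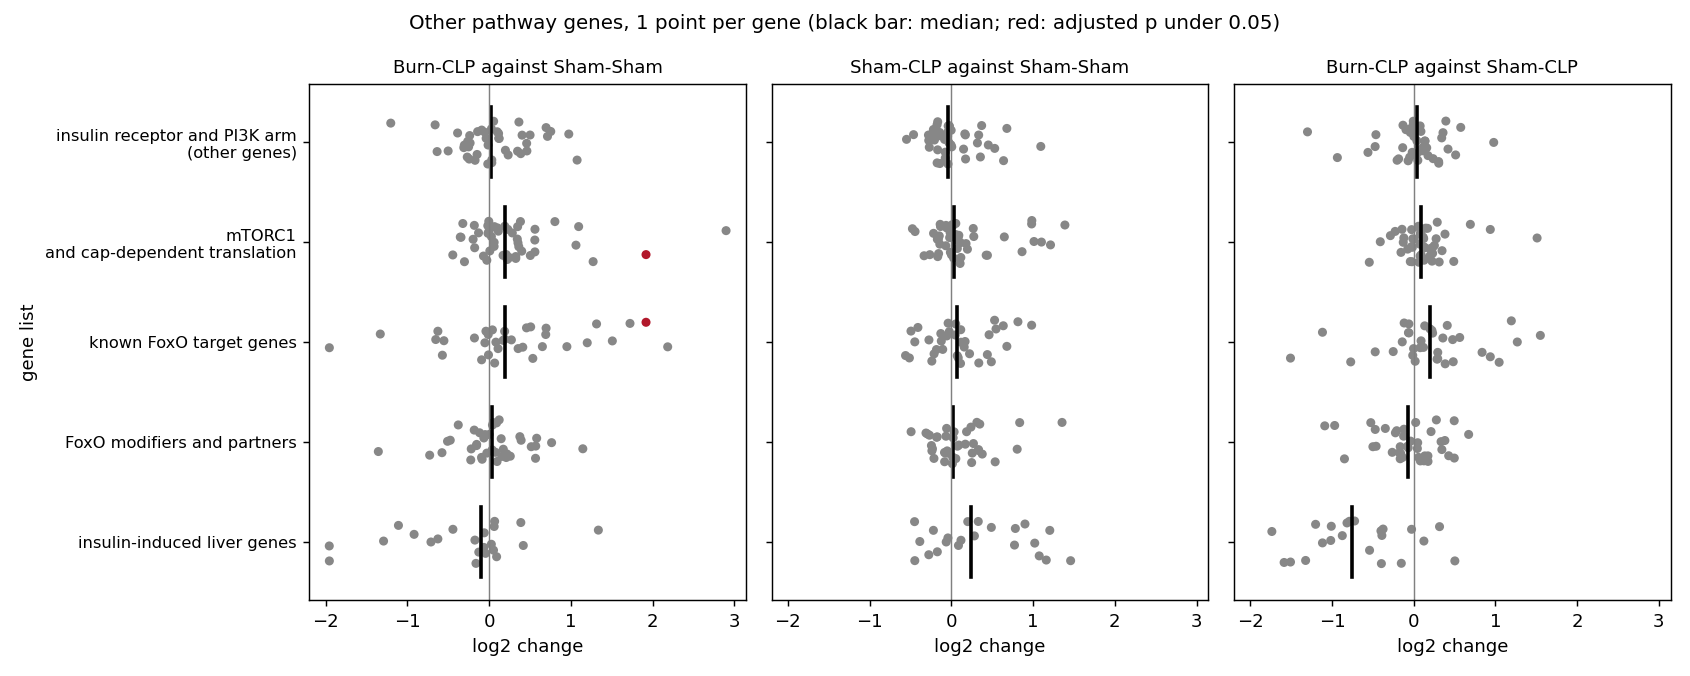
Difference of mean log2 signals (horizontal axis) for the tested genes of 5 pathway lists, 1 point per gene, in Burn-CLP against Sham-Sham, Sham-CLP against Sham-Sham and Burn-CLP against Sham-CLP; black bars are list medians and red points have an adjusted p under 0.05. The red point, drawn in both lists that hold it, is Sesn1, and the insulin-induced liver genes have a median of -0.75 in Burn-CLP against Sham-CLP.

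Of 44 known FoxO targets 35 were tested. In Burn-CLP against Sham-Sham 10 had an unadjusted p under 0.05 with a higher and 3 with a lower signal. That is 37.1% of the list beside 20.2% of all genes. The median difference was 0.19 beside 0.00 over all genes. The call in the list was Sesn1. Bnip3, a mitophagy receptor gene, differed by 1.51 ± 0.29 (limma, adjusted p = 0.0535), Ctsl, which encodes the lysosomal protease cathepsin L, by 0.65 ± 0.15 (0.0728), and Angptl8, an insulin-induced regulator of lipoprotein lipase that FoxO1 represses, by -1.95 ± 0.43 (0.0693; 2 Burn-CLP arrays at the floor, so the difference is understated). The hepatic FoxO1 targets Igfbp1 and Pck1, chosen after their values were seen, differed by 1.31 ± 0.41 (limma, adjusted p = 0.143) and by -0.05. In Sham-CLP against Sham-Sham 3 of the 35, or 8.57% beside 11.5% of all genes, had an unadjusted p under 0.05, all higher. In Burn-CLP against Sham-CLP 7 were higher and 3 lower, or 28.6% beside 9.17%. Those last counts were 3 higher and 2 lower without Burn-CLP 2, 5 and 2 without Sham-CLP 3, and 6 and 5 under the deposited scaling. Over 16 alternatives the higher genes numbered 7 to 11 in Burn-CLP against Sham-Sham and 1 to 3 in Sham-CLP against Sham-Sham. The calls in Burn-CLP against Sham-Sham ran from 0, as with the floor at the 10th percentile, to 4 without Burn-CLP 3.

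Of 24 genes known to be induced by insulin in liver, among them Angptl8 and Srebf1 of the FoxO target list, 22 were tested and limma, with all 9 arrays, called none in any comparison. In Burn-CLP against Sham-CLP 10 of the 22, or 45.5% beside 9.17% of all genes, had an unadjusted p under 0.05. All 10 were lower, with a median difference of -0.75 beside 0.02 over all genes. In Sham-CLP against Sham-Sham 7, or 31.8% beside 11.5%, had an unadjusted p under 0.05, all higher, with a median of 0.24. These comparisons share the Sham-CLP arrays, so their opposite signs are not independent. In Burn-CLP against Sham-Sham 2 were higher and 4 lower, or 27.3% beside 20.2%, with a median of -0.09. That median turned to 0.10 without Burn-CLP 2 and was -0.43 without Burn-CLP 3, where 3 genes were called; it was -0.25 without Sham-Sham 1, and 1 gene was called without Sham-Sham 3. Over 16 alternatives the count of lower genes in Burn-CLP against Sham-CLP was 8 to 12, none was higher, and the median stayed between -0.83 and -0.55. Fads2, the delta-6 fatty acid desaturase gene, had signals of 1005, 639.2 and 2024 in Burn-CLP, 2854, 2749 and 6102 in Sham-CLP, and 2790, 4996 and 5419 in Sham-Sham. Its Burn-CLP arrays were below all 6 others, at -1.73 against Sham-CLP (limma, adjusted p = 0.357) and -1.95 ± 0.46 against Sham-Sham (0.0772). Insig1, which encodes a brake on sterol synthesis, went the other way, at 1.34 ± 0.31 in Burn-CLP against Sham-Sham (limma, adjusted p = 0.0734) and 0.32 against Sham-CLP. Acaca, the acetyl-CoA carboxylase gene, differed by 0.39 in Burn-CLP and 0.78 in Sham-CLP against Sham-Sham. In Burn-CLP against Sham-CLP Acaca was lower, at -0.39 ± 0.17 (limma, adjusted p = 0.536).

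Of 55 genes of mTORC1 and cap-dependent translation, 47 were tested. Burn-CLP against Sham-Sham had 6 with an unadjusted p under 0.05, all higher, or 12.8% beside 20.2% of all genes. The median was 0.19 beside 0.00 over all genes. Besides Sesn1, Castor1, an arginine sensor gene, differed by 1.06 ± 0.27 (limma, adjusted p = 0.0953), Ddit4, which encodes an mTORC1 inhibitor induced by stress, by 2.90 ± 0.77 (0.102), and Prkaa2, an AMP-activated kinase subunit gene, by 1.27 ± 0.39 (0.141). The spread of Ddit4 was wide, with 584.2, 3355 and 364.9 in Burn-CLP, 387.4, 421.8 and 189.6 in Sham-CLP, and 33.43, 233.0 and 115.1 in Sham-Sham. Sham-CLP against Sham-Sham had 5 higher and 1 lower with an unadjusted p under 0.05, or 12.8% beside 11.5% of all genes. Burn-CLP against Sham-CLP had 2 higher, or 4.26% beside 9.17%. Over 16 alternatives the higher genes numbered 4 to 8, 3 to 7 and 0 to 6 in Burn-CLP against Sham-Sham, Sham-CLP against Sham-Sham and Burn-CLP against Sham-CLP.

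Of 60 other genes of the insulin receptor and phosphatidylinositol 3-kinase arm, 43 were tested. In the setting of the report limma called none of them in any comparison. With an unadjusted p under 0.05 there were 5 higher and 1 lower in Burn-CLP against Sham-Sham, or 14% beside 20.2% of all genes. In Sham-CLP against Sham-Sham 2 were higher, or 4.65% beside 11.5%. In Burn-CLP against Sham-CLP 1 was higher and 2 lower, or 6.98% beside 9.17%. The medians were 0.03, -0.05 and 0.04, and over 16 alternatives the higher genes numbered 2 to 8, 0 to 4 and 0 to 4. In Burn-CLP against Sham-Sham 1 gene was called with all 9 arrays above the floor, 1 without Burn-CLP 3 and 2 without Sham-Sham 3. Without Sham-Sham 3, 1 was also called in Sham-CLP against Sham-Sham. The other alternatives gave no call. Ptprf, a receptor phosphatase gene, had signals of 676.9, 483.4 and 819.5 in Burn-CLP, 1140, 992.8 and 1648 in Sham-CLP, and 1438, 1639 and 1387 in Sham-Sham, and differed by -1.20 ± 0.25 in Burn-CLP against Sham-Sham (limma, adjusted p = 0.0604). Ptpn1, the gene of the insulin receptor phosphatase PTP1B, was at the floor on Sham-Sham 1 and 2, and its only measured Sham-Sham signal, 203.6, lay within the 180.9 to 222.6 of the 6 CLP arrays, so no difference is given. Ptpn1 is still 1 of the 5 higher genes counted above in Burn-CLP against Sham-Sham. It is also 1 of the 2 in Sham-CLP against Sham-Sham. The adaptor gene Sh2b2 differed by 0.71 ± 0.24 (0.163). Pik3r1, the gene of the main regulatory subunit of the lipid kinase, differed by -0.66 in Burn-CLP and 0.64 in Sham-CLP against Sham-Sham, and by -1.30 ± 0.41 in Burn-CLP against Sham-CLP (limma, adjusted p = 0.415).

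Of 47 genes of FoxO modifiers and partners, 39 were tested. In the setting of the report limma called none of them in any comparison. An unadjusted p under 0.05 was found for 4 higher and 3 lower in Burn-CLP against Sham-Sham, or 17.9% beside 20.2% of all genes. In Sham-CLP against Sham-Sham 3 were higher, or 7.69% beside 11.5%. In Burn-CLP against Sham-CLP 1 was higher and 4 lower, or 12.8% beside 9.17%. The medians were 0.04, 0.02 and -0.07, and over 16 alternatives the higher genes numbered 3 to 5, 2 to 4 and 0 to 2. Without Sham-Sham 3, 1 gene was called in Sham-CLP against Sham-Sham, and the other alternatives gave no call. Foxa3, a liver forkhead factor gene, differed by 0.58 ± 0.18 in Burn-CLP (limma, adjusted p = 0.139) and by 0.81 in Sham-CLP against Sham-Sham. Cebpa, which encodes the hepatocyte factor C/EBP alpha, differed by -0.58 ± 0.19 in Burn-CLP against Sham-Sham (0.161) and by -0.85 against Sham-CLP. The coactivator gene Crebbp differed by 1.15 ± 0.33 (0.126) and the kinase gene Sgk2 by -1.35 ± 0.44 (0.151) in Burn-CLP against Sham-Sham, each with 1 array at the floor.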

How the data were processed

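Total RNA of whole rat liver was measured on 9 arrays in 3 groups of 3, taken from the sample titles. The authors deposited 1 linear intensity value per probe set and array, over 15923 probe sets. The image analysis and any background step are named in none of the sources used here. The deposited intensity values of each array had a mean of 500.139 to 500.174 after trimming 2% at each end, so the arrays had been scaled to a common level.

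After quantile normalization, signals were floored at the 20th percentile of all values (64.3) and put on the log2 scale, and 57 control probe sets were left out. limma 3.58.1 in R 4.3.3 fitted 3 group means (lmFit, eBayes) to the 13535 probe sets with at least 3 arrays above the floor, with Benjamini-Hochberg adjustment over all. The fit was tested on simulated data. Symbols of the platform annotation were updated to GRCr8 RefSeq for 12748 probe sets by Entrez identifier and 2 by accession, and 33 kept theirs; 312 had several symbols, 2771 none, and none of these was named. All 18 probe sets kept their symbol. Precision is limited by the number of arrays.

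The members and lists were chosen with earlier results of these data known. Every member is named with all its probe sets. Of each list, called genes and those with the smallest moderated F p, up to 4, are named, with the 3 genes most correlated with each called member. Alternatives were the deposited scaling, the floor, the filter, the samples fitted, the replicate number as a block, and each array left out. Promoter windows are RefSeq's of GRCr8.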

Additional observations from a re-analysis of the deposited data

How the results depend on the processing

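Over 51 differences (17 probe sets in 3 comparisons) and 801 recomputed values, 779 kept their direction and side of the threshold or moved by less than the spread, 19 lost a call, 1 gained one, 2 moved and no called value was reversed; 35 values without a call changed sign. Both that moved did so under the deposited scaling in Burn-CLP against Sham-CLP, Irs1 to 0.45 and Akt1 1375178_at to 0.32. That scaling shifted the median of all probe sets to 0.11 there and to -0.08 in Sham-CLP against Sham-Sham, and the median of the 17 to 0.32 and -0.17. The cause of the lost calls was not tested.

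Of the 17, 2 were called in Burn-CLP against Sham-Sham, 1 where all 9 arrays had to be above the floor, which leaves Foxo4 out, 1 with only the 2 groups fitted, and 0 to 2 with an array left out. In Sham-CLP against Sham-Sham the 1 became 0 under the deposited scaling, the floor at the 10th percentile, no floor, no filter, all 9 arrays above the floor, only the 2 groups and the replicate block, and 0 to 1 with an array left out. In the F test the 1 became 0 with the lower floor, without the filter and with the replicate block, and 0 to 2 with an array left out. In Burn-CLP against Sham-CLP it stayed 0 in all.

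Over all probe sets the 101 calls in Burn-CLP against Sham-Sham became 53 with the lower floor, 13 with only the 2 groups, 59 with the replicate block and 19 to 645 with an array left out. The 8 in Sham-CLP against Sham-Sham became 4 with the replicate block, 4 under the deposited scaling and 4 to 347 with an array left out. The 2 in Burn-CLP against Sham-CLP became 4 with the lower floor, 4 without the filter, 1 under the deposited scaling, 0 with no floor, with all 9 arrays above it, with only the 2 groups and with the replicate block, and 0 to 36 with an array left out. The 20 of the F test became 40 without the filter and 9 to 303 with an array left out. In the wider lists, an alternative chosen after seeing the data, the 1 call in Burn-CLP against Sham-Sham became 3 with all 9 arrays above the floor, 2 without the filter, 0 with the lower floor, with only the 2 groups and with the replicate block, and 0 to 7 with an array left out; the 0 in Sham-CLP against Sham-Sham became 0 to 3. The replicate numbers did not pair the arrays: same-numbered arrays correlated at -0.03 to 0.08 after group means were removed.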

Other observations

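Probe set 1376229_at of Foxo3 was above the floor on the array numbered 1 of each group and on no other. Over the 13535 tested probe sets, all 3 arrays numbered 1 lay above every other array for 129, or 0.953%. They lay below every other array for 116, or 0.857%. The arrays numbered 2 lay above all others for 80 and below all others for 82, and those numbered 3 for 182 and 172.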
